A study of Sus scrofa with 6 samples.

Results

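The enzymes of the citrate cycle were followed one by one in longissimus dorsi, a muscle along the spine, from 6 healthy female Tibetan pigs, with 1 RNA sequencing library per animal. The low altitude group was 3 pigs of the Chengdu plain, at about 500 m, which were fed daily under experimental conditions and came from ancestors raised there over several generations. The high altitude group was 3 free-ranging pigs living in the Tibetan highland at an average of 4000 m. Altitude, feeding, housing and line history differed together between the groups and cannot be told apart, and no source used here gives the animals' ages. The enzymes were chosen by name as 9 genes of the cycle: CS, IDH2, IDH3A, IDH3B, IDH3G, OGDH, SUCLA2, FH and MDH2. Of these 9, 7 have a row in the deposited table of 25322 Ensembl pig genes under their current Ensembl ID. CS and IDH3A were not matched to a row and are not analysed here. All 7 matched enzymes passed the filter on low values, which asked for 3 or more of the 6 libraries to reach an FPKM of 1 and which 10005 genes passed. FPKM is a fragment count corrected for the length of the gene and the number of mapped fragments, so levels can be set side by side between genes.

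The citrate cycle runs in the mitochondrial matrix and oxidises the acetyl groups that come from pyruvate, fatty acids and amino acids. It releases carbon dioxide and passes electrons to the respiratory chain as NADH and reduced flavin. In muscle its capacity is known to rise with the share of oxidative fibres and with endurance training, and citrate synthase activity is a common measure of mitochondrial content.

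The libraries carried the signature of skeletal muscle. The 6 matched genes of a 10-gene list of muscle markers, among them desmin (DES), nebulin (NEB) and muscle phosphorylase (PYGM), summed to an FPKM of 14189 to 15743 at low and 14379 to 19899 at high altitude. Adipocyte markers summed to no more than 12.4 at low and 22.0 at high altitude, with 2 of 6 genes matched and the defining marker ADIPOQ among those not matched. High altitude library 1 stood apart from the other 5. Its 4 matched slow fibre genes of 9 (MYL3, TNNT1, TNNI1 and TNNC1) summed to 10493, against 2751 and 6874 in the other high altitude libraries and 3106 to 4707 at low altitude. TNNC1 gave 4891 of that 10493, and MYL3 was higher in high altitude library 3 (1293) than in library 1 (1190). In high altitude library 1 the 5 matched fibroblast and matrix genes of 6 summed to 246, against 958 and 846 in the other high altitude libraries and 688 to 1067 at low altitude. The part of fibre type or connective tissue in the levels below was not tested, and differences between the groups are also given without that library. In bulk tissue, fewer fibres of a type and less RNA per fibre cannot be told apart.

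None of the 7 enzymes differed between low and high altitude beyond the spread between animals. The estimates lay below 0 for all 7, which means lower at low altitude. The enzyme with the widest gap was MDH2, whose mean FPKM at low altitude was 0.637 times that at high altitude, and for the other 6 the ratio of means was 0.886 to 0.981. In limma on log2(FPKM + 1), adjusted over all tested genes by the Benjamini-Hochberg method, 0 of 7 enzymes passed an adjusted p of 0.05 in either direction, where 0.23% of all genes did, 0.16% higher and 0.07% lower. At an unadjusted p under 0.05 the count was also 0 of 7 (limma), with 9.42% over all genes, and the smallest unadjusted p of an enzyme was 0.135. The low and high altitude libraries overlapped in all 7, while they did not overlap in 16.1% of all genes, with low altitude below in 4.8% and above in 11.3%. Estimates below 0 made up 42.3% of all genes, and the median log2 fold change was −0.14 over the 7 enzymes and 0.04 over all genes. For these 7 enzymes the common direction rested on high altitude library 1. Without it 4 of 7 estimates lay below 0, and the median was −0.03 over the enzymes and −0.02 over all genes.

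**Figure D1:**
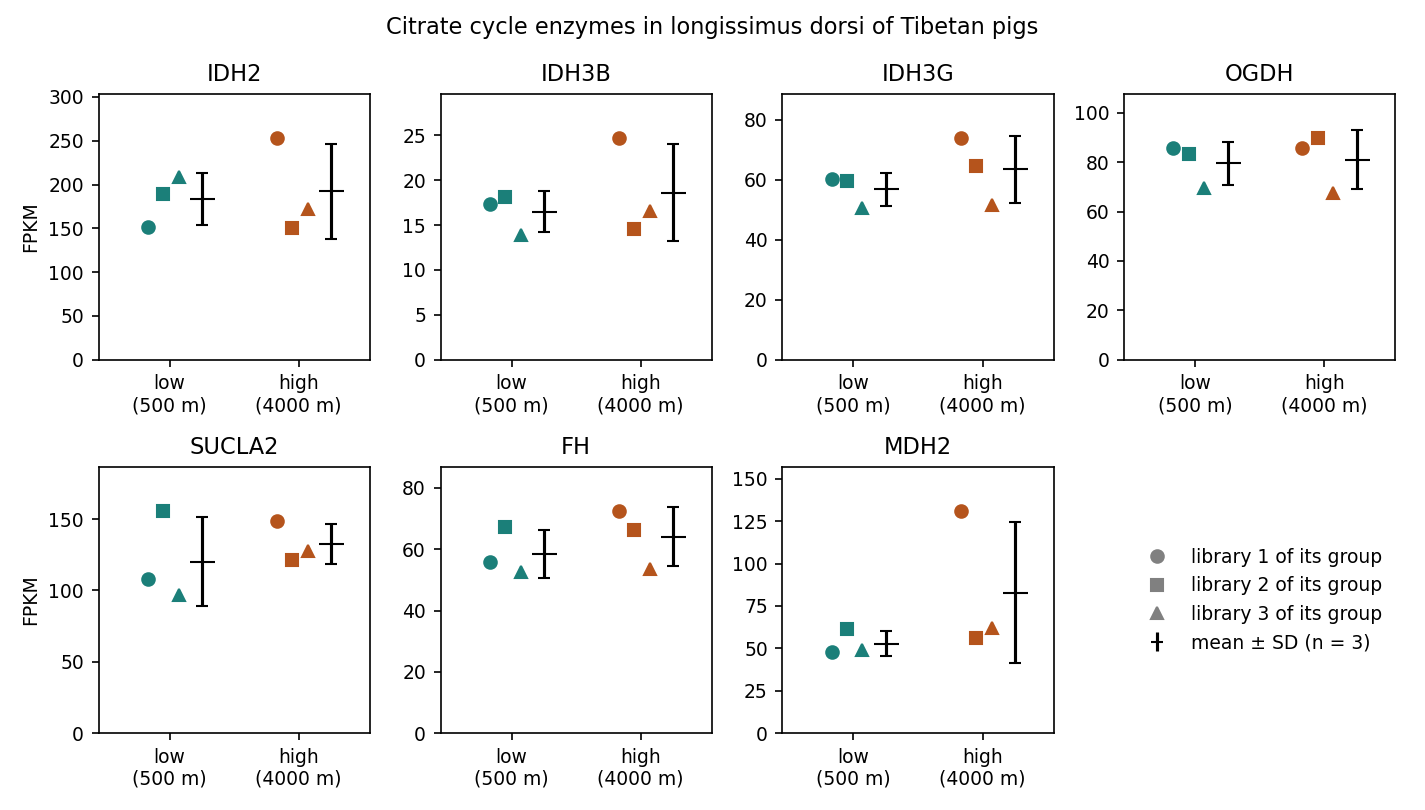
FPKM of each of the 7 enzymes (vertical axes, starting at 0) in the 3 low altitude libraries (left, teal) and the 3 high altitude libraries (right, orange); symbols give the library number within its group and black bars the mean ± SD (n = 3). The groups overlap in all 7 panels, and the MDH2 value of 131 in high altitude library 1 lies apart from the other 5 libraries, which are between 48.0 and 62.0.

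The oxidative decarboxylation of isocitrate is carried out by separate enzymes in the matrix. IDH2 (ENSSSCG00000001852) makes NADPH from isocitrate and feeds the antioxidant systems of the mitochondrion. It was at an FPKM of 151, 190 and 209 at low altitude, against 253, 151 and 173 at high altitude. High altitude library 1 was above the other 5, and the lowest values, at nearly the same level, came from a library of each group. The means were 183 ± 29.4 FPKM at low and 192 ± 54.0 FPKM at high altitude (SD, n = 3 each). The log2 fold change, low minus high, was −0.04 with a 95% interval of −0.59 to 0.50 (SE 0.23, limma, Benjamini-Hochberg adjusted p = 0.971). Without high altitude library 1 it was 0.17 (limma, Benjamini-Hochberg adjusted p = 0.706), with its sign turned round.

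IDH3B and IDH3G are subunits of the NAD-dependent isocitrate dehydrogenase, a regulated enzyme of the cycle, whose catalytic subunit is encoded by IDH3A. IDH3B (ENSSSCG00000007173) had 17.4, 18.2 and 13.9 FPKM at low altitude, against 24.7, 14.5 and 16.6 at high altitude. High altitude library 1 was above all others and low altitude library 3 below them. Between these, low altitude libraries 1 and 2 lay above high altitude libraries 2 and 3. IDH3G (ENSSSCG00000012783) had 60.1, 59.6 and 50.5 FPKM at low altitude, against 73.9, 64.7 and 51.6 at high altitude. Here 2 high altitude libraries were above every low altitude library, and the third was below 2 of them. The log2 fold change was −0.14 for IDH3B (95% interval −0.66 to 0.38; limma, Benjamini-Hochberg adjusted p = 0.886). For IDH3G it was −0.15 (95% interval −0.56 to 0.27; limma, Benjamini-Hochberg adjusted p = 0.839). Without high altitude library 1 these were 0.07 for IDH3B, with its sign turned round, and −0.03 for IDH3G.

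OGDH (ENSSSCG00000016743) is the first component of the 2-oxoglutarate dehydrogenase complex, which turns 2-oxoglutarate into succinyl-CoA. Its FPKM was 85.9, 83.2 and 69.4 at low altitude, against 85.8, 89.9 and 67.6 at high altitude. The groups covered nearly the same range, and the lowest and the highest value were both from high altitude. Its log2 fold change of −0.02 was the smallest of the 7 in size (95% interval −0.42 to 0.38; limma, Benjamini-Hochberg adjusted p = 0.980). Its mean was 79.5 ± 8.84 at low and 81.1 ± 11.8 FPKM at high altitude (SD, n = 3 each). Without high altitude library 1 the log2 fold change was 0.02.

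SUCLA2 (ENSSSCG00000009405) is the subunit that makes succinyl-CoA synthetase form ATP, the form that prevails in muscle. It was at 108, 155 and 96.9 FPKM at low altitude, against 149, 122 and 128 at high altitude. The low altitude animals held the highest value and the lowest pair, and the high altitude values lay between them. SUCLA2 was the only enzyme of the 7 with a wider relative spread at low altitude, with a coefficient of variation of 25.9% at low and 10.7% at high altitude. The log2 fold change was −0.17 (95% interval −0.65 to 0.32; limma, Benjamini-Hochberg adjusted p = 0.848), and −0.08 without high altitude library 1.

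FH (ENSSSCG00000028178), fumarase, adds water to fumarate to give malate. Its FPKM was 55.7, 67.3 and 52.6 at low altitude, against 72.4, 66.3 and 53.6 at high altitude. The groups were interleaved, with low altitude library 2 above 2 of the high altitude libraries. Its mean was 58.5 ± 7.75 at low and 64.1 ± 9.59 FPKM at high altitude (SD, n = 3 each). For FH the log2 fold change was −0.13 (95% interval −0.54 to 0.28; limma, Benjamini-Hochberg adjusted p = 0.868), and −0.03 without high altitude library 1.

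MDH2 (ENSSSCG00000025486), the mitochondrial malate dehydrogenase, closes the cycle by making oxaloacetate and also serves the malate-aspartate shuttle. It had 48.0, 61.2 and 49.3 FPKM at low altitude, against 131, 55.9 and 62.0 at high altitude. High altitude library 1 was far above any other value, and the other 5 libraries overlapped. The means were 52.8 ± 7.26 at low and 82.9 ± 41.6 FPKM at high altitude (SD, n = 3 each), and the coefficient of variation was 13.7% at low and 50.2% at high altitude. The log2 fold change was −0.54 with a 95% interval of −1.30 to 0.21 (SE 0.32, limma, Benjamini-Hochberg adjusted p = 0.655). Without high altitude library 1 it was −0.16 with an interval of −0.55 to 0.22 (limma, Benjamini-Hochberg adjusted p = 0.691).

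The intervals bound how large a difference between the 2 groups these libraries allow, whatever its source. For 6 of the 7 enzymes the 95% interval lay within a log2 change of 1 in either direction, and MDH2 was the exception. Without high altitude library 1 the interval lay within that range for all 7. Against the mean of high altitude libraries 2 and 3 alone, the low altitude mean was 0.896 times as high for MDH2, 1.13 times for IDH2 and between 0.963 and 1.06 times for the other 5. The intervals do not show that the enzymes were equal.

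**Figure D2:**
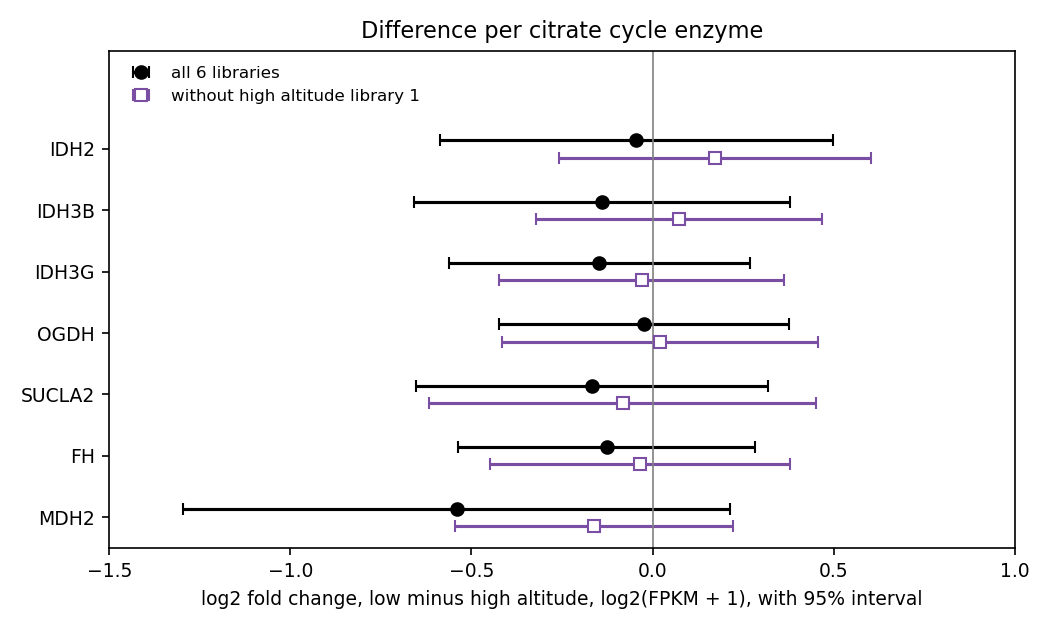
Log2 fold change of each enzyme, low minus high altitude on the log2(FPKM + 1) scale (horizontal axis), with its 95% interval from limma, for all 6 libraries (filled circles) and without high altitude library 1 (open squares). Every interval includes 0, and the MDH2 estimate is −0.54 with all libraries and −0.16 without that one.

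High altitude library 1 carried the highest levels of most of the enzymes. This library had the highest FPKM of all 6 libraries for 5 of the 7 enzymes, where it was highest in 10% of all genes. The exceptions were OGDH, highest in high altitude library 2, and SUCLA2, highest in low altitude library 2. The library exceeded the mean of the other high altitude libraries 2.22 times for MDH2, 1.59 times for IDH3B and 1.57 times for IDH2, and 1.09 to 1.27 times for the other 4. Low altitude library 3 was lowest for 4 of the 7 enzymes, SUCLA2, FH, IDH3B and IDH3G, where it was lowest in 14.4% of all genes. The mean log2(FPKM + 1) of the 7 enzymes was 6.0, 6.21 and 5.92 at low altitude and 6.54, 6.08 and 6.02 at high altitude. The same library of each group was thus the highest in the summed slow fibre genes and in the enzymes, library 2 at low and library 1 at high altitude. High altitude library 3 was second in slow fibre genes with 6874, while its enzyme mean was below those of low altitude library 2 and high altitude library 2. Together the 7 enzymes made up 0.104, 0.125 and 0.0955% of the FPKM total at low and 0.139, 0.0985 and 0.105% at high altitude. The total includes the mitochondrial genome, at 25.2% in low altitude library 3 and 29.7 to 32.5% in the others. Low altitude library 3 had the lowest share, yet its summed enzyme FPKM of 542 was above the 526 of low altitude library 1. FPKM totals were 566907 in that library 3 and 506611 in library 1. The mitochondrial genome summed to 143102 in library 3 and 155546 in library 1. Nuclear totals, described below, were 345164 and 345620, and they leave out 107 genes besides the mitochondrial ones. Neither part was larger in library 3, so its higher total lay in the 107 genes left out. The order of the shares thus depended in part on the total.

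**Figure D3:**
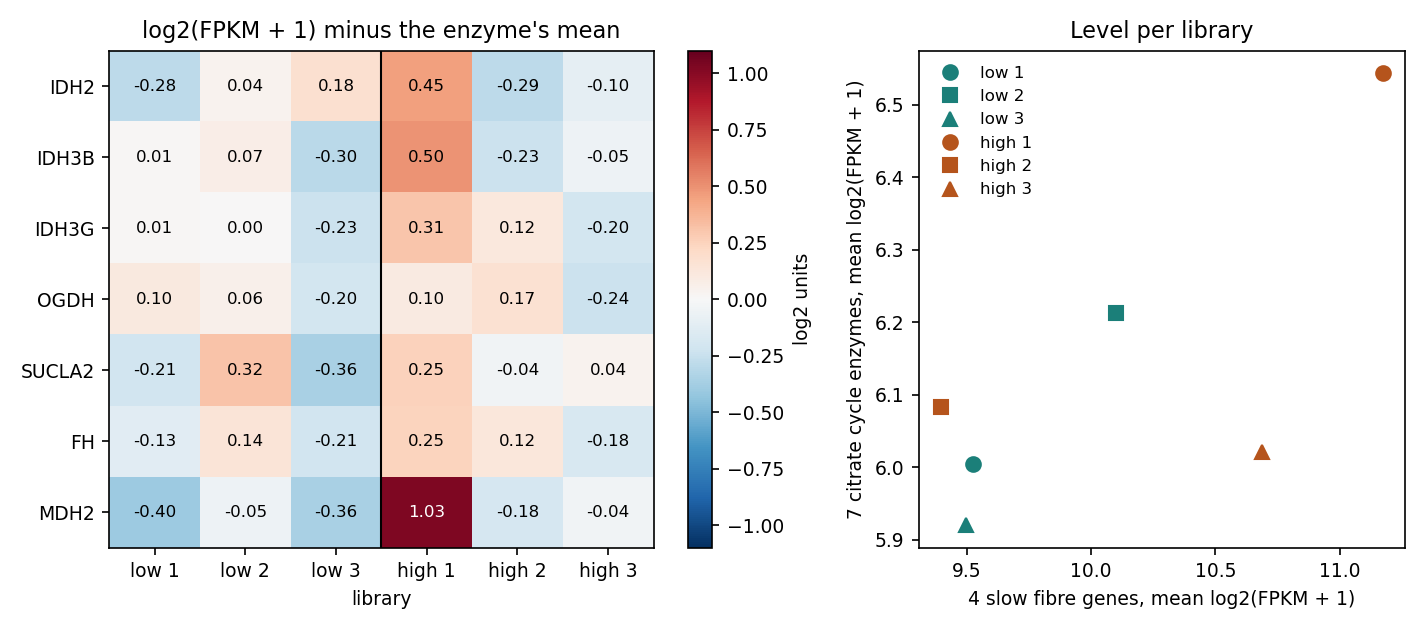
Left, log2(FPKM + 1) of each enzyme (rows) in each library (columns, low altitude left of the line) minus the mean of that enzyme over the 6 libraries; right, the mean log2(FPKM + 1) of the 7 enzymes against that of 4 slow fibre genes, 1 point per library. High altitude library 1 is above the mean for all 7 enzymes, by 0.10 for OGDH and 1.03 for MDH2, and is at the top right of the right panel.

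The enzymes moved from library to library with unequal closeness. The profile of FH over the 6 libraries, centred on its mean, differed from the mean profile of the other 6 enzymes by a root mean square of 0.12 log2 units, and those of IDH3B and IDH3G by 0.13 each. The difference was 0.17 for SUCLA2, 0.22 for OGDH, 0.23 for IDH2 and 0.34 for MDH2. IDH2 was the only enzyme of the 7 whose level in low altitude library 3 was above its own mean, by 0.18 log2 units. The genes outside the list with a profile most like the mean of the 7 were COQ9, which takes part in the synthesis of coenzyme Q, ATP5PO of the ATP synthase, POP7, a subunit of ribonuclease P, NDUFB7 of complex I, HIBADH of valine breakdown and SDHA of succinate dehydrogenase. Their root mean square differences from that mean profile were 0.041 for COQ9 and 0.065 to 0.074 for the other 5. COQ9, the closest, had 83.2, 98.2 and 81.3 FPKM at low altitude, against 131, 87.5 and 84.0 at high altitude. These 6 were picked from all tested genes with a symbol by their likeness over 6 libraries, which is given as a description.

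The levels of the 7 enzymes spanned about an order of magnitude, and the order was in part the same in every library. IDH2 had the highest mean FPKM over the 6 libraries (188), above 97.6% of all tested genes, followed by SUCLA2 (126), OGDH (80.3), MDH2 (67.8), FH (61.3), IDH3G (60.0) and IDH3B (17.5, above 81.3% of tested genes). IDH2 was above SUCLA2, SUCLA2 above OGDH and IDH3G above IDH3B in all 6 libraries. MDH2 was above FH in 2 libraries only, both from high altitude, and FH above IDH3G in 4, so MDH2, FH and IDH3G could not be ordered beyond their spread. OGDH was above MDH2 in 5 libraries, and in high altitude library 1 it was below.

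Ratios of FPKM within a library do not depend on the scaling between libraries and were compared by an exact permutation test, two-sided, over the 20 assignments of the libraries, for which the smallest possible p is 0.1. That floor lies above the adjusted p threshold set for limma, so none of the 6 ratios could pass, whatever its values. The test therefore cannot decide whether a ratio differed between the groups, and its p-values are given as a description. IDH3B stood to IDH3G at 0.289, 0.305 and 0.275 at low altitude, against 0.335, 0.224 and 0.321 at high altitude, so the level of IDH3G was 2.99 to 4.46 times that of IDH3B over the 6 animals. IDH2 stood to the sum of IDH3B and IDH3G at 1.95, 2.44 and 3.25 at low altitude, against 2.57, 1.90 and 2.53 at high altitude (exact permutation p = 0.9). The level of IDH2 was above that of IDH1, its cytosolic counterpart, 21.9, 28.7 and 44.5 times at low altitude and 42.0, 16.9 and 13.0 times at high altitude (exact permutation p = 0.4). MDH2 stood to the cytosolic MDH1 at 0.776, 0.572 and 0.963 at low altitude, against 1.14, 0.770 and 0.640 at high altitude (exact permutation p = 0.8). Only in high altitude library 1 was the mitochondrial form of malate dehydrogenase above the cytosolic one. SUCLA2 stood to SUCLG2, which makes the same synthetase form GTP, at 2.59, 3.62 and 2.10 at low altitude, against 3.78, 2.91 and 2.57 at high altitude (exact permutation p = 0.6). OGDH stood to DLST, the second component of its complex, at 3.24, 2.22 and 2.88 at low altitude, against 2.18, 2.82 and 2.19 at high altitude (exact permutation p = 0.2). When high altitude library 1 was left out, the mean log2 ratio of IDH2 to IDH1, low minus high, was 1.03, against 0.53 with it, and that of MDH2 to MDH1 was 0.10, against −0.13 with it. For the other 4 ratios the difference without that library was −0.02 for SUCLA2 to SUCLG2, 0.11 for IDH3B to IDH3G, 0.14 for OGDH to DLST and 0.18 for IDH2 to IDH3B plus IDH3G.

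**Figure D4:**
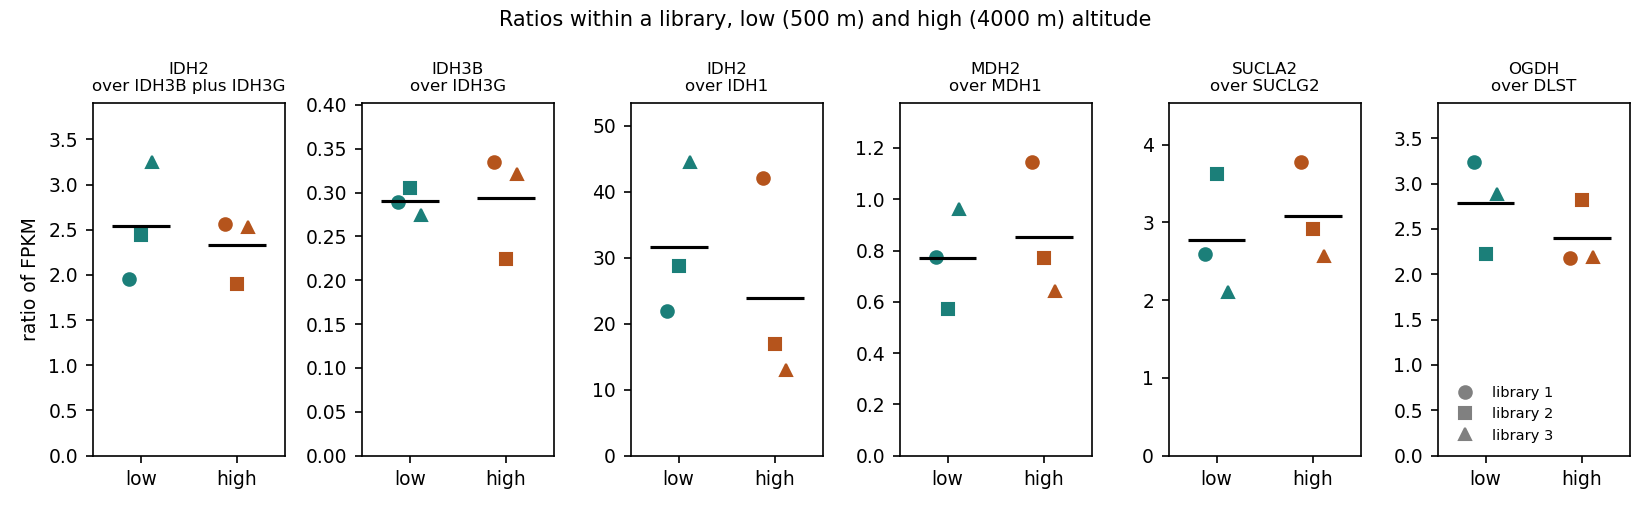
Ratio of FPKM within each library (vertical axes, starting at 0) for 6 pairs of enzymes, low altitude left (teal) and high altitude right (orange) in each panel; symbols give the library number within its group and lines the mean of the 3 libraries. The groups overlap in all 6 panels.

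The 9 other genes of the cycle that were read beside the 7 also showed no called difference. Of these 8 were tested and 0 passed in limma with Benjamini-Hochberg adjustment (smallest adjusted p = 0.575). Estimates lay below 0 for 7 of the 8, where 42.3% of all genes did, and the median log2 fold change was −0.25. Without high altitude library 1 they lay below 0 for all 8, with a median of −0.11. The median over all genes was then −0.02, so most genes lay below 0 in that fit. OGDHL, a relative of OGDH, did not pass the filter: its value was 0 in each low altitude library, and 0.0282, 0.0184 and 0 in the high altitude libraries. DLD, the third component of the 2-oxoglutarate dehydrogenase complex, which other dehydrogenases also use, had the smallest unadjusted p of the 8. It was at 74.9, 77.9 and 56.7 FPKM at low altitude, against 112, 91.0 and 77.8 at high altitude (log2 fold change −0.42, 95% interval −0.88 to 0.05; limma, Benjamini-Hochberg adjusted p = 0.575). High altitude library 3 lay just below low altitude library 2, so the groups overlapped, and without high altitude library 1 the estimate was −0.28. The ratio of OGDH to DLD was 1.15, 1.07 and 1.23 at low altitude, against 0.764, 0.988 and 0.870 at high altitude. These ratios did not overlap between the groups. The pair was picked after the values were seen, so the ratio is given as a description with no test.

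Succinyl-CoA synthetase joins the common subunit SUCLG1 to either SUCLA2 or SUCLG2. SUCLG1 had 235, 248 and 240 FPKM at low altitude, against 365, 265 and 251 at high altitude. It was the only one of the 8 whose groups did not overlap, as in 4.8% of all genes with low altitude below. Its log2 fold change was −0.27 (limma, Benjamini-Hochberg adjusted p = 0.686), or −0.10 without high altitude library 1. SUCLG2 averaged 43.6 ± 2.31 at low and 43.6 ± 5.47 FPKM at high altitude (SD, n = 3 each). SUCLA2 made up 72.2, 78.4 and 67.8% of the summed FPKM of SUCLA2 and SUCLG2 at low altitude, and 79.1, 74.4 and 72.0% at high altitude. The level of SUCLG1 was 1.57, 1.25 and 1.67 times that sum at low altitude and 1.94, 1.63 and 1.41 times at high altitude, so it was above the sum of its partners in every library.

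Succinate dehydrogenase, which is also complex II of the respiratory chain, links the step made by SUCLA2 to that made by FH. Its iron-sulphur subunit SDHB had 132, 140 and 109 FPKM at low altitude, against 240, 166 and 121 at high altitude (log2 fold change of −0.42; limma, Benjamini-Hochberg adjusted p = 0.661). Its membrane anchor SDHC had 71.0, 80.8 and 51.9 at low altitude, against 105, 93.5 and 68.5 at high altitude (log2 fold change of −0.39; limma, Benjamini-Hochberg adjusted p = 0.656). In each of them high altitude library 1 was the highest and low altitude library 3 the lowest of the 6, and the groups overlapped. Leaving out high altitude library 1 gave −0.17 for SDHB and −0.26 for SDHC.

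Genes on either side of the cycle were read from lists by their counts. Of 10 tested genes for counterparts outside the cycle and 10 for the entry of pyruvate, 0 passed in limma with Benjamini-Hochberg adjustment. The median log2 fold changes were −0.30 and −0.18, or −0.36 and −0.11 without high altitude library 1. Estimates lay below 0 for 7 and 6 genes, or 9 and 6 without that library, where 42.3% of all genes did with all libraries. Without that library most genes lay below 0, with a median of −0.02 over all genes. The gene of the entry step with the smallest unadjusted p was PDK4, a kinase that switches off pyruvate dehydrogenase. It was at 321, 130 and 527 FPKM at low altitude, against 22.9, 0.722 and 48.3 at high altitude (limma, Benjamini-Hochberg adjusted p = 0.313). All 3 low altitude values lay above all 3 high altitude values, as in 11.3% of all genes. For PDK4 the log2 fold change was 4.47, or 4.93 without high altitude library 1 (limma, Benjamini-Hochberg adjusted p = 0.259). In 2 others of that list, MPC2 and PDHB, low altitude lay below high altitude without overlap, as in 4.8% of all genes. Their log2 fold changes were −0.39 and −0.35 (limma, Benjamini-Hochberg adjusted p = 0.506 and 0.548). Of 15 tested nuclear genes of oxidative phosphorylation, 5 of citrate cycle carriers, 8 regulators of mitochondrial genes and 2 of lipoylation and succinate dehydrogenase assembly, 0 passed as well, with medians of −0.35, −0.26, −0.18 and 0.02. These medians were −0.16, −0.10, −0.14 and 0.11 without high altitude library 1. In the same order, 15, 5, 6 and 1 estimates lay below 0 with all libraries, and 14, 4, 7 and 0 without that one. The mean log2(FPKM + 1) of the 7 enzymes minus that of the 15 oxidative phosphorylation genes was −0.62, −0.86 and −0.56 at low altitude and −0.83, −0.91 and −0.87 at high altitude. Low altitude library 2 lay within the high altitude range, and low altitude libraries 1 and 3 above it.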

How the data were processed

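Per the labels' protocols, muscle was frozen on sampling, TRIzol was used to extract RNA, and dUTP libraries that keep the strand were sequenced. The tools TopHat2 2.0.11 and Cufflinks 2.2.1 are named per the submitters' processing notes; no source used here states the genome build, annotation or settings, and coordinates are left out. The authors deposited FPKM values, 1 column per animal. They hold no counts, so depth in reads is unknown and intervals for counting error are not given; steps between the lowest values put the libraries' relative depths at 0.965, 0.998 and 0.880 for low and 1.13, 0.856 and 1.22 for high altitude. FPKM totals were 506611 to 566907 at low and 526368 to 571855 at high altitude.

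Symbols came from a table of Ensembl gene IDs, which named 11804 of 25322 IDs. Values were analysed as log2(FPKM + 1) with limma 3.58.1 in R 4.3.3 (trend, two-sided, Benjamini-Hochberg over 10005 genes), low minus high altitude; near-identical copies could share reads. This fit was tested on simulated data. Ratios were tested with scipy 1.17.1. The ratios planned with IDH3A or CS could not be formed, and IDH2 was set against IDH3B plus IDH3G. The enzymes and lists were chosen with earlier results of these data known. All enzymes were to be named, and of each other list up to 4 genes by unadjusted p, and the 6 genes most alike in profile; other cycle genes were named after their values were seen, and 1 further gene planned for the cycle list is not reported here. The limma p-values set a group difference against the spread between these animals, with variance information shared across the tested genes. The permutation p-values set it against the 20 assignments of the libraries. Matched markers of endothelium, macrophages, smooth muscle and red cells summed to at most 49.8, 71.5, 112 and 118 FPKM at low and 48.2, 52.1, 118 and 166 at high altitude, and those of fast fibres to 41474 to 42349 and 38371 to 46793. Alternatives were pseudocounts of 0.1 and 0.5, other filters, 4 scalings, 3 other limma fits, a replicate block and leaving out each library.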

Additional observations from a re-analysis of the deposited data

How the results depend on the processing

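No enzyme passed the adjusted threshold under any of the 18 alternatives (limma, Benjamini-Hochberg adjusted p of 0.556 or more), and 0 were called higher or lower in each. The estimates of MDH2, SUCLA2, FH and IDH3G stayed below 0 in all 18. Rescaling to a common FPKM total gave IDH2 a log2 fold change of 0.031. A common nuclear total, which left out 107 genes at 0 in a library and at 5 or more in another, gave 0.0034. The log2 fold change of IDH2 was 0.092 with array weights, and −0.20 to 0.17 when 1 library was left out. That of OGDH was 0.052 and 0.024 with the same totals and −0.15 to 0.070 without 1 library, and that of IDH3B was 0.0065 with array weights and −0.29 to 0.074 without 1 library. Without 1 library SDHD gave −0.22 to 0.016 and SUCLG2 −0.066 to 0.10; SUCLG2 was −0.050 under median-of-ratios scaling, −0.017 after quantile normalization and −0.029 with array weights. The count of estimates below 0 was 4 to 7 of 7, with 4 without high altitude library 1. The log2 ratios changed sign for IDH2 over IDH3B plus IDH3G (−0.084 to 0.28), IDH3B over IDH3G (−0.18 to 0.11), MDH2 over MDH1 (−0.32 to 0.10) and SUCLA2 over SUCLG2 (−0.38 to 0.0092); the cause was not tested. A common FPKM total moved the median of all genes to 0.10. In a fit with a replicate block on the animals' numbers 0 enzymes passed and MDH2 had a log2 fold change of −0.54 (limma, Benjamini-Hochberg adjusted p = 0.675). Deviations of same-numbered animals correlated at −0.14 to 0.095, and 1 of 6 libraries correlated best with its own number, so the numbers were not read as pairs. With 3 animals per group the precision is limited, and depth is unknown.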
